A study of Mus musculus with 10 samples.

Results

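The sites compared here are the chromatin regions called for the glucocorticoid receptor (GR) and for lysine-specific demethylase 1 (LSD1) in skeletal muscle of mice starved for 24 h. They were all peaks of the libraries labelled GR starved and LSD1 starved, 37783 and 66332 peaks, which make 104115 of the 365066 peaks in the 8 peak lists of the series. Peaks that overlapped by at least 1 bp were joined into 1 site, and this gave 98046 sites. Of these, 5566 were shared (5.68%), 32214 held GR only (32.9%) and 60266 held LSD1 only (61.5%).

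Chromatin immunoprecipitation sequencing (ChIP-seq) was applied to skeletal muscle of C57BL/6J mice, labelled as 10 weeks old, that were fed or starved. The series holds 10 samples, with 1 library each for GR, LSD1, histone H3 mono- or dimethylated at lysine 9 (H3K9me1, H3K9me2) and input chromatin in either condition. No allele, transgene or drug is named in the labels of these groups. Nuclei came from whole muscle, so that myofibre nuclei were not separated from those of vessels, connective tissue or immune cells. The GR libraries carried 1 library code and the LSD1 libraries another, and both inputs carried the code of the GR libraries. A difference between GR and LSD1 therefore cannot be told apart from a difference between the 2 sets of libraries. The deposited LSD1 starved list is also many times longer than the one described in the text of the study, whereas the other GR and LSD1 lists have the number of peaks given there, and every shared and LSD1-only value below rests on that list. With 1 library per protein there was no replicate, and every value below describes these 2 libraries without a test. Intervals are exact (Clopper-Pearson) 95% binomial intervals that cover counting error only, and read depth is unknown.

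GR is a nuclear receptor that enters the nucleus when it binds glucocorticoids, the adrenal steroids that rise when food is withdrawn. It recognises the glucocorticoid response element (GRE), a palindrome of 2 short arms separated by 3 bases, and can also reach chromatin through other factors. LSD1, encoded by Kdm1a, removes methyl groups from lysines of histone H3 and does not read a DNA sequence of its own, so it is brought to chromatin by partner proteins. In muscle, glucocorticoids are known for turning on genes of protein breakdown and for restraining growth signalling.

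Sequences of some sites with strong calls follow. They were picked for their fold or motif and are not typical of their classes. In the 300 central bases, GRE-like matches were found in 0.309% of shared and 0.551% of GR-only sites. All are given on the plus strand of mm10 (GRCm38), from the reference genome. The first 3 are shared sites with a GRE-like match (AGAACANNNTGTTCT with at most 1 mismatch, in capitals, with 20 bases on each side), near genes that glucocorticoids are known to induce: Pik3r1, a regulatory subunit of phosphoinositide 3-kinase, Tsc22d3, which encodes the anti-inflammatory protein GILZ, and Ddit4, an inhibitor of mTORC1. They were chosen after their values were seen.
Pik3r1, 43.9 kb upstream, chr13:101812122-101812176: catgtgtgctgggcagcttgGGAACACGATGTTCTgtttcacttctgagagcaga
Tsc22d3, 29.1 kb downstream of the nearest start, chrX:140513534-140513588: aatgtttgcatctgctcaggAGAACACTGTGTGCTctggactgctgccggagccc
Ddit4, 22.4 kb upstream, chr10:59974253-59974307: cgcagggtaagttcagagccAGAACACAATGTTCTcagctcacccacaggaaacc
The shared promoter of Trim63, the muscle ubiquitin ligase MuRF1, is shown as the 300 bases at the centre of the site, with a FOXO-type match (GTAAACA, here on the minus strand) and an E-box of the MyoD type (CAGCTG) in capitals. The window opens with aacagtctgttct, which equals the end of the GRE pattern. The first bases of that pattern would lie outside the window, so a GRE-like match could not be scored there.
Trim63, chr4:134314913-134315212: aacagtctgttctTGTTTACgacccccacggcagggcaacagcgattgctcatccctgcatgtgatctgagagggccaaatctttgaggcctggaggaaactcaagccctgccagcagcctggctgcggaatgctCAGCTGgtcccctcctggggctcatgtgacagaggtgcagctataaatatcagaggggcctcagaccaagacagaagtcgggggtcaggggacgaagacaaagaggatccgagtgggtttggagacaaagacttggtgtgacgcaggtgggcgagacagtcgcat
Among GR-only sites away from promoters, the one of highest fold enrichment lay 39.2 kb upstream of 4933431G14Rik. Its central 300 bases held an exact GRE and a match to the AP-1 sequence TGANTCA, both in capitals.
4933431G14Rik, chr6:72162237-72162536: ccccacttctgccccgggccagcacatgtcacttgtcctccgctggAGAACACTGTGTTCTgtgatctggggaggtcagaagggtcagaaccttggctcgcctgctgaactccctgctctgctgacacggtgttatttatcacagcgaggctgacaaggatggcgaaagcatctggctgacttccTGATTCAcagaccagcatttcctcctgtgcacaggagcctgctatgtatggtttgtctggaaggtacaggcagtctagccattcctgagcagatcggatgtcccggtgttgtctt
Of the 6 named LSD1-only sites (the 3 of highest fold enrichment in promoters and the 3 outside, with under 50% repeat-masked bases), 2 held a stretch of the U1 small nuclear RNA gene Rnu1b1, a splicing RNA with many copies in the genome. The run identical to Rnu1b1 is in capitals. It measured 87 bases at the promoter site of Eapp and 75 bases at the site 16.9 kb upstream of Trpm6.
Eapp, chr12:54696844-54696960: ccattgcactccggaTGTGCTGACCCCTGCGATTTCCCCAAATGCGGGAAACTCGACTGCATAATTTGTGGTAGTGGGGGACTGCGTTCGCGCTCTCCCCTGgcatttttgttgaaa
Trpm6, chr19:18732803-18732907: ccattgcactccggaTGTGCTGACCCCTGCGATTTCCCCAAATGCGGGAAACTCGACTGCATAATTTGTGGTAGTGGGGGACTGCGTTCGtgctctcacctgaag
Another LSD1-only site, 5.54 kb upstream of 5031425F14Rik, was a 50-base peak in a telomere-type repeat. It is shown with 20 bases on each side and with the unit CCCTAA in capitals.
5031425F14Rik, chr2:166441868-166441957: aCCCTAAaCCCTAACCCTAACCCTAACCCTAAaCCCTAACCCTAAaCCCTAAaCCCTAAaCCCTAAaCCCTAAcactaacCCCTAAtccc

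The first question was how often GR and LSD1 were called at the same place after starvation. Of the GR peaks, 14.7% (interval 14.4 to 15.1) were overlapped by an LSD1 peak, and of the LSD1 peaks 9.14% (8.93 to 9.37) were overlapped by a GR peak. A GR peak was more often shared the stronger it was, from 11.6% at a fold enrichment over input of 2 to 3, to 23.4% at 3 to 4, 27.3% at 4 to 5 and 39.2% at 7 or more. The 286 GR peaks under a fold of 2 went against this order, with 64.0% shared. LSD1 peaks showed the same break. Below a fold of 3 they were shared most, at 53.8% of 811 peaks (2 to 3) and 53.1% of 211 peaks (under 2). Above it the share was 8.34% at 3 to 4, 17.1% at 5 to 7 and 23.8% at 7 or more, the last over 21 peaks. Long peaks were shared most, and a longer peak meets an overlap of 1 bp more easily. The share rose from 6.36% of GR peaks under 200 bp to 70.1% of those of 1600 bp or more, and from 2.96% of LSD1 peaks of the shortest length, 49 bp, to 68.0% of those of 400 bp or more. Stricter lists lowered the share of GR peaks with LSD1. It was 6.43% when both lists were limited to q-values up to 0.01, 0.909% for q-values up to 1e-05, and 8.59% with the LSD1 list reduced to the 37783 peaks of highest fold.

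Shared sites were also the longest, with a median of 525 bp against 291 bp for GR-only and 96 bp for LSD1-only sites. A shared site spans all of its joined peaks, so its greater length follows in part from its definition. The median fold enrichment hardly separated the classes. For GR it was 2.81 in shared and 2.69 in GR-only sites, and for LSD1 it was 3.45 in shared and 3.44 in LSD1-only sites. A q-value of 0.01 or less was reached by 61.2% of the shared and 30.1% of the other GR peaks. For LSD1 peaks the corresponding shares were 21.0% and 9.16%. Over the 6069 overlapping pairs, the folds of the 2 proteins had a Spearman rho of 0.317, and both were measured against input of the same starved muscle.

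The second question was where each class lay. Shared sites were concentrated at promoters, here the 1000 bp before a transcription start site (TSS) and the 100 bp after it. The promoter share was 37.1% (35.9 to 38.4) for shared, 11.1% (10.8 to 11.5) for GR-only and 3.06% (2.92 to 3.20) for LSD1-only sites. Introns held 29.7%, 47.6% and 38.9% of the 3 classes in the same order, and intergenic sequence 24.8%, 33.6% and 54.1%. Read the other way, 27.4% of all sites in promoters were shared, 48.0% held GR only and 24.6% held LSD1 only. In intergenic sequence 3.06% were shared and 72.8% held LSD1 only.

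**Figure D1:**
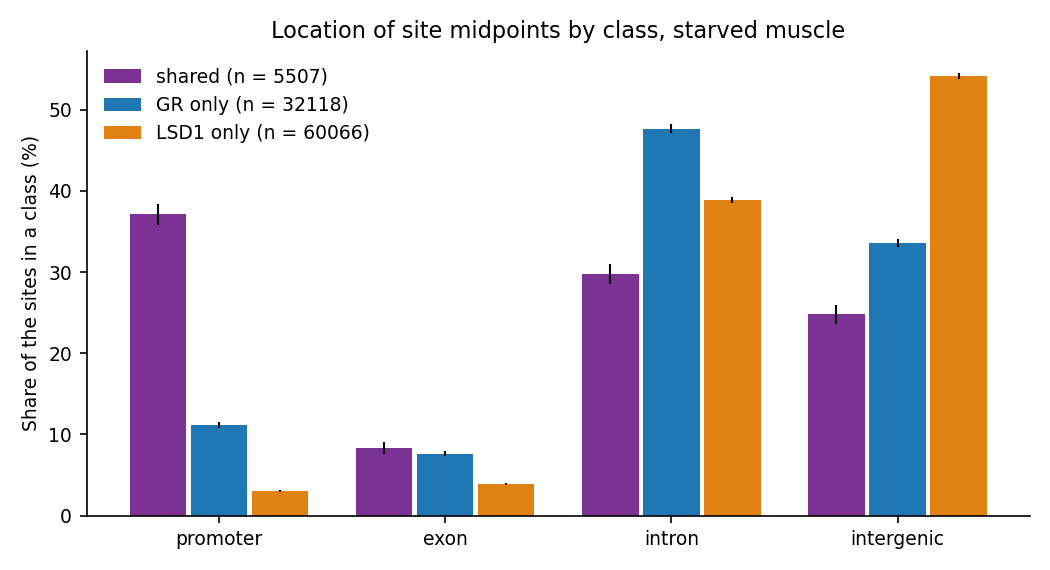
Share of site midpoints (y axis, %) in promoters, exons, introns and intergenic sequence (x axis) for shared, GR-only and LSD1-only sites on chromosomes 1 to 19, X and Y of starved muscle, with 1 library per protein; error bars are exact 95% binomial intervals. Promoters held 37.1% of shared, 11.1% of GR-only and 3.06% of LSD1-only sites.

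The distance to the nearest TSS followed the same order. Its median was 1756 bp for shared, 14465 bp for GR-only and 41271 bp for LSD1-only sites. Within 1 kb of a TSS lay 47.5%, 15.9% and 4.93% of the 3 classes, and more than 100 kb away lay 4.68%, 10.1% and 30.6%. Between 1 and 10 kb lay 17.3% of shared, 26.1% of GR-only and 16.6% of LSD1-only sites. The 3462 shared sites outside promoters had a median distance of 13.2 kb, against 18.5 kb for distal GR-only and 44.3 kb for distal LSD1-only sites.

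**Figure D2:**
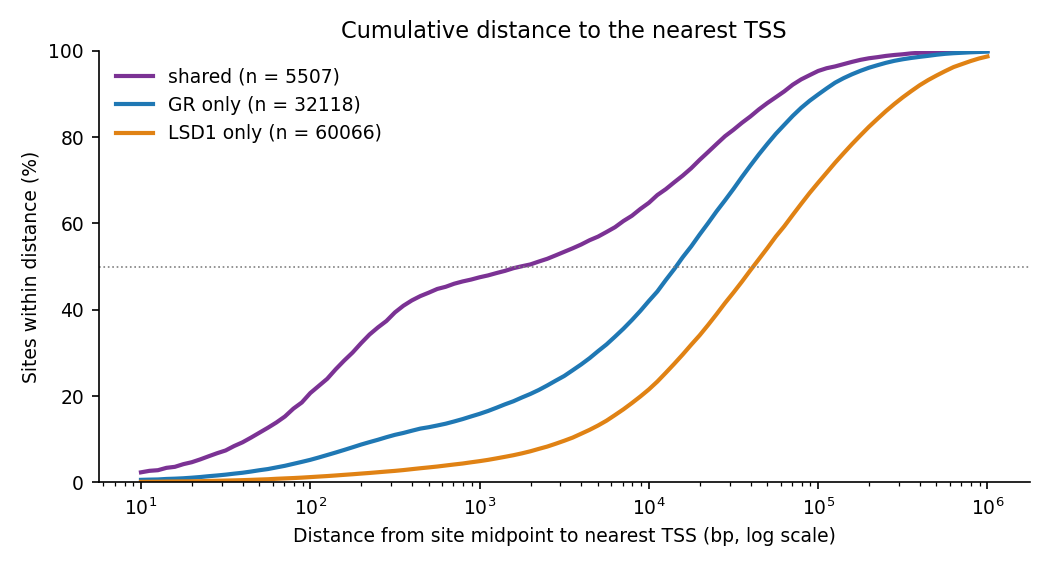
Cumulative share of sites (y axis, %) within a given distance of the nearest TSS (x axis, bp, log scale) for the 3 classes; the dotted line marks 50%. The curve of shared sites crosses the line at 1756 bp, that of GR-only sites at 14465 bp and that of LSD1-only sites at 41271 bp.

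The promoter share of shared peaks was higher also among peaks of like length, except in the longest GR peaks, where the intervals overlapped. Of GR peaks of 200 to 400 bp, 40.0% were in promoters when shared and 11.6% when not. At 400 to 800 bp the values were 40.3% and 12.4%, and at 1600 bp or more they were 25.4% (20.1 to 31.4) and 20.2% (13.1 to 28.9). Of LSD1 peaks of 200 to 400 bp, 43.8% were in promoters when shared and 4.22% when not. The order of the 3 classes was also found with both lists limited to q-values up to 0.01, with promoter shares of 35.2%, 19.4% and 6.78%.

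The order was not kept with q-values up to 1e-05 in both lists, where 24 shared sites were left and 0 of them lay in a promoter. The interval, 0 to 14.2%, includes the GR-only share of 10.7% and the LSD1-only share of 8.13%, so the order is undetermined there. Of these 24 sites, 14 had at least 50% repeat-masked bases, 12 overlapped an H3K9me1 starved peak and 9 an H3K9me2 starved peak. They included sites near Sfi1 and Erdr1. These genes also stood out in the full lists, with 22 and 18 shared sites. Of those sites, 9 of 22 and 9 of 18 held an H3K9me2 starved peak, whereas 1 of 19 did so near Gm21119. Whether such regions raised the overlap of the 2 lists was not tested. Leaving out all peaks that overlap an H3K9me1 or H3K9me2 starved peak, a choice made after seeing the data, gave a GR share of 13.6% and a promoter share of shared sites of 39.2%.

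The third question was how closely the 2 peaks of a pair coincided. The lists give no summit, so the offset was taken between midpoints. Its median was 131 bp (quartiles 59 and 243 bp), and 40.3% of pairs lay within 100 bp and 93.3% within 500 bp. Pairs were defined by overlap, so the lengths of the 2 peaks set an upper limit to the offset, and small offsets follow in part from this rule. In promoters the median offset was 123 bp and elsewhere 134 bp. The LSD1 peak of a pair was the shorter one, with a median of 167 bp against 511 bp for GR, and it lay wholly inside the GR peak in 58.6% of pairs. The LSD1 midpoint was on the inner side of the GR peak, closer to its midpoint than to its edge, in 47.3% of pairs. No reference for placement without regard to the GR midpoint was computed, so this share does not show centring. In promoter pairs the LSD1 midpoint was downstream of the GR midpoint in 55.8% of pairs, and the median positions relative to the TSS were -60 bp for GR and -47 bp for LSD1.

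Counting LSD1 midpoints around all GR midpoints, shared or not, needed no rule of overlap. Within 100 bp of a GR midpoint in a promoter there were 8.12 LSD1 midpoints per 100 GR peaks and 100 bp, 20.2 times the level 4 to 5 kb away (0.401). Away from promoters the central level was 2.37, which was 4.34 times its surroundings (0.545). Around LSD1 midpoints the density of GR midpoints was 21.5 times its surroundings in promoters and 4.30 times elsewhere. Of the GR peaks without LSD1, 6.16% had the edge of an LSD1 peak within 500 bp.

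**Figure D3:**
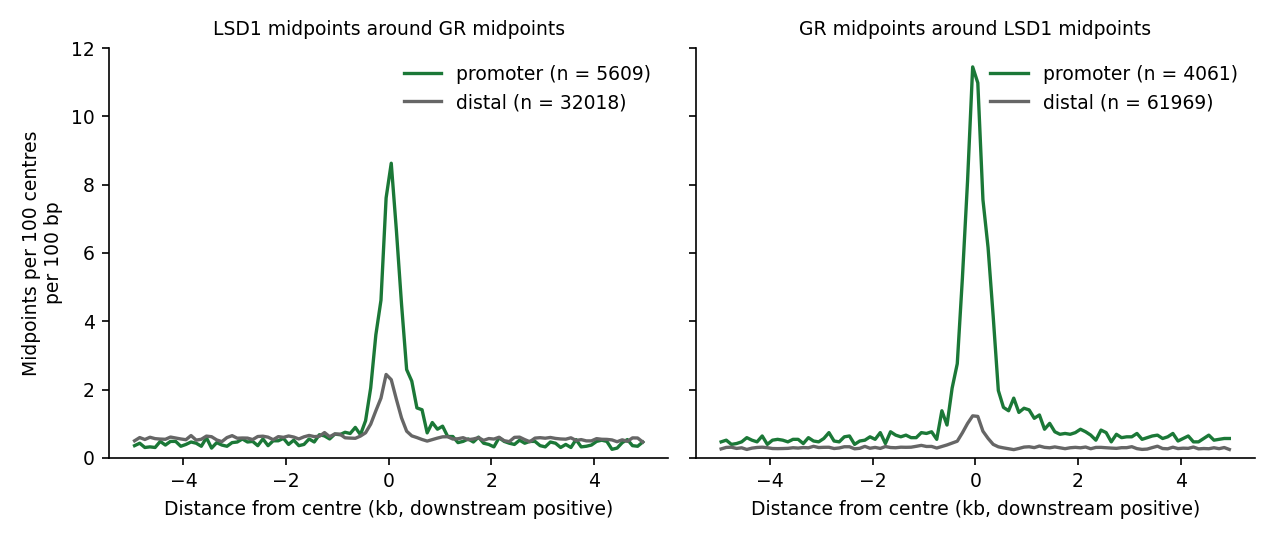
Density of LSD1 midpoints around GR midpoints (left) and of GR midpoints around LSD1 midpoints (right), in midpoints per 100 centres per 100 bp (y axis), by distance from the centre (x axis, kb, positive downstream along the gene with the nearest TSS), for centres in promoters and elsewhere (distal). All 4 curves peak within 100 bp of the centre, and the promoter peaks reach 20.2 and 21.5 times the level 4 to 5 kb away.

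Promoter sites of the 3 classes differed in base composition. The median GC content of the 300 central bases was 65.7% in shared, 61.7% in GR-only and 58.7% in LSD1-only promoter sites, with 26, 20 and 17 CpG dinucleotides. A GGGCGG sequence of the SP1/KLF type, searched on both strands, occurred in 72.5%, 58.1% and 47.1% of them, and in 35.7% of all 32851 RefSeq promoter windows of 300 bases (250 before to 50 after the TSS). Outside promoters it occurred in 20.1% of shared, 9.88% of GR-only and 4.34% of LSD1-only sites, against 5.76%, 5.52% and 3.17% in the sequence 5 kb to either side. The exact palindrome of nuclear respiratory factor 1 (NRF1), GCGCATGCGC, was found in 2.05%, 1.73% and 1.14% of promoter sites and in 0.971% of all RefSeq promoters.

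GRE-like sequences were rare and lay mostly outside the promoter window. Some were still near a TSS, as in the shared site at Tnnc2 (midpoint 0.262 kb away) and the GR-only site at Gm27252 (579 bp away). A match with at most 1 mismatch was found in 17 of 3462 distal shared sites (0.491%), 173 of 28539 distal GR-only sites (0.606%) and 105 of 58229 distal LSD1-only sites (0.180%). The flanking sequence 5 kb away held it in 0.173%, 0.242% and 0.204%. In promoter sites the counts were 0 of 2045, 4 of 3579 and 0 of 1837, and 0.164% of all RefSeq promoters held it. Among distal sites with a GR fold of 5 or more, the share was 6.94% (30 of 432, interval 4.73 to 9.77) in GR-only and 2.74% (6 of 219, interval 1.01 to 5.87) in shared sites. At a fold of 3 to 5 it was 1.66% (1.32 to 2.06) and 0.631% (0.254 to 1.295). The Pik3r1, Tsc22d3 and Ddit4 sites printed above were 3 of the 6 shared sites in the strongest group, with GR folds of 11.7, 10.8 and 6.68 and LSD1 folds of 3.47, 3.32 and 3.49. The LSD1 q-values there were 0.0674, 0.0748 and 0.0163, so that all 3 would hold GR only with q-values up to 0.01. The MyoD-type E-box occurred equally often in distal shared (23.7%) and GR-only sites (23.6%), and in 15.4% of distal LSD1-only sites, with 14.5%, 14.5% and 11.4% in their flanks. Values for TGANTCA were 11.7%, 11.0% and 9.15%, and for GTAAACA 4.59%, 3.98% and 3.89%.

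The strongest calls of the 2 proteins came from different kinds of sequence. Of the 50 sites of highest GR fold, 0 had at least 50% repeat-masked bases, 9 held a GRE-like match, 1 was in a promoter and 49 held a GR peak in fed muscle as well. Of the 50 sites of highest LSD1 fold, 35 held LSD1 only, 39 had at least 50% repeat-masked bases and 31 held an LSD1 peak in fed muscle as well. Among LSD1-only sites the share with at least 50% repeat-masked bases was 38.0% under a fold of 3, 25.2% at 3 to 4, 31.7% at 5 to 6 and 88.6% (31 of 35) at 6 or more. The U1-type run printed above, searched as 20 bases identical to Rnu1b1, was found in 6 of 5507 shared (0.109%), 11 of 60066 LSD1-only (0.0183%) and 0 of 32118 GR-only sites. A telomere-type repeat was found in 0.254% of shared, 0.103% of GR-only and 0.0649% of LSD1-only sites. Reads with 1 location only were kept by the authors, and how well such copies can be told apart at their read length was not tested.

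The site classes of starved muscle could be read against the fed lists, which took no part in defining them. Of the shared promoter sites, 70.1% (68.0 to 72.1) held an LSD1 peak in fed muscle, against 1.39% in the flanks 5 kb away, and 53.9% held a GR peak. Of the GR-only promoter sites, 42.9% (41.2 to 44.5) held an LSD1 peak in fed muscle, although none was called there after starvation, and 33.0% held a GR peak. The fed LSD1 peak was thus more frequent at GR-only promoter sites of starved muscle than at LSD1-only promoter sites, where it was 30.0% (27.9 to 32.1). Without any fed peak were 18.7% of shared, 45.3% of GR-only and 64.3% of LSD1-only promoter sites.

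Outside promoters, 40.0% of shared, 11.9% of GR-only and 1.07% of LSD1-only sites held a fed LSD1 peak, and 40.7%, 17.0% and 0.766% held a fed GR peak. These sites again include some just downstream of a TSS, most often in the shared class. At a GR fold of 5 or more the fed GR peak was nearly always present, in 90.9% of distal shared and 93.1% of distal GR-only sites. A fed LSD1 peak was present in 70.3% and 56.7% of these. In all, 98.5% of the 58229 distal LSD1-only sites had neither protein called in fed muscle. H3K9me2 is among the methyl marks that LSD1 can remove. H3K9me2 peaks of fed muscle were found in 32.5% of shared, 24.8% of GR-only and 16.5% of LSD1-only promoter sites, against 5.11%, 4.74% and 3.78% in their flanks. In starved muscle an H3K9me2 peak was found in 0.342%, 0.0838% and 0.327% of these promoter sites. The flanks of the shared promoter sites were also lower, with 0.147% in starved against 5.11% in fed muscle. The fed and starved H3K9me2 peaks come from separate libraries with separate peak calls. The lengths of those lists were not compared, and the cause of the lower shares was not tested.

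**Figure D4:**
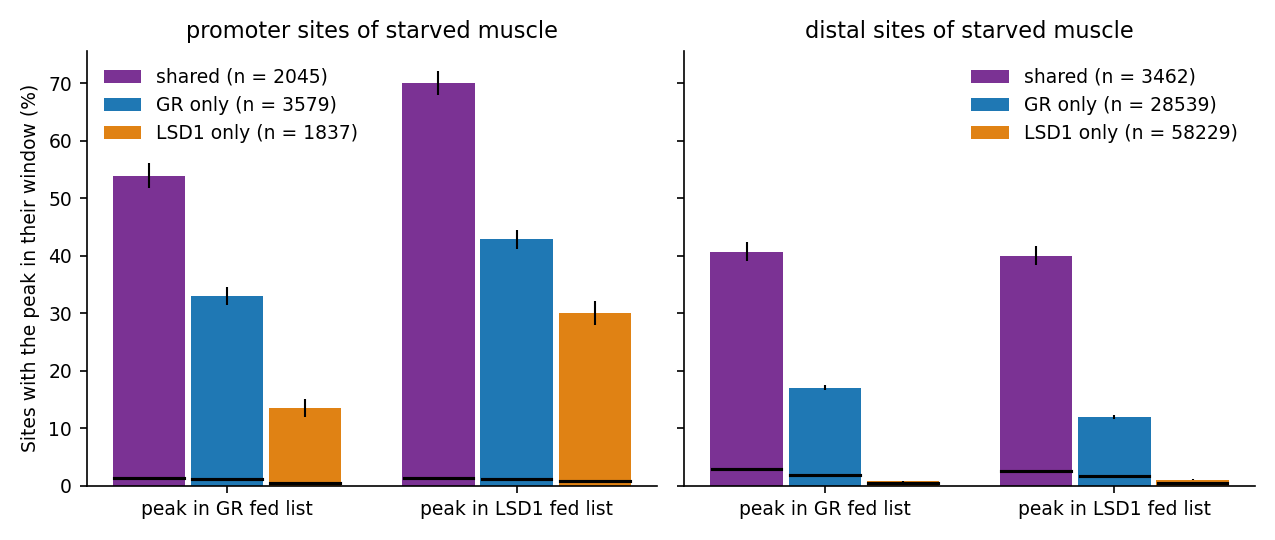
Share of sites of starved muscle (y axis, %) whose central 300 bases overlap a GR or LSD1 peak of fed muscle (x axis), in promoters (left) and elsewhere (right), by class; error bars are exact 95% binomial intervals and black lines the mean share in windows 5 kb to either side. In promoters the fed LSD1 peak was found at 70.1% of shared, 42.9% of GR-only and 30.0% of LSD1-only sites.

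The last question was which genes the classes lay near. Each site was given to the gene with the nearest TSS. Of 26180 annotated genes, 15.7% had a shared site, 28.5% had both proteins at separate sites only, 10.5% had GR only and 23.3% had LSD1 only. By the site midpoint in the promoter itself, the shares were 8.86%, 1.27%, 13.2% and 5.61%. These shares of all genes are the reference for the gene list counts below that use the full peak lists. For counts with q-values up to 0.01 in both lists, the reference is 713 of 26180 genes. The number of genes with a shared site was 4123, and it was 713 with q-values up to 0.01 in both lists, 24 with q-values up to 1e-05 and 2692 with the LSD1 list of equal length. Genes with more sites are more likely to have a shared one, and the median over all genes was 2 sites. In the lists below it was 7 for ubiquitin, 5 for insulin and mTORC1, clock and myofibre genes, and 4.5 for autophagy and cofactor genes. It was 3 for proteasome genes and markers of other cell types, 2 for respiratory chain and ribosomal protein genes and 0 for olfactory receptor genes.

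The tissue could be checked on genes of single cell types. Of 12 myofibre markers, 9 had a shared site by nearest TSS and 7 by promoter. Atp2a1, the calcium pump of fast fibres, had a shared site 3.85 kb downstream with a GR fold of 8.51 and an LSD1 fold of 3.49, and Ttn, the giant sarcomere protein, had one with folds of 5.56 and 3.15. Of 30 markers of satellite, endothelial, immune, connective tissue, fat and Schwann cells, 0 had a shared promoter site, 2 had a shared site elsewhere (Chrdl2 and Cdh5, with GR folds of 2.72 and 2.64) and 15 had both proteins at separate sites. In bulk tissue, fewer cells of a type and less binding per cell cannot be told apart. The 1125 olfactory receptor genes, which muscle is not known to use, had LSD1 only in 375 cases, a shared site in 5 and no site in 672.

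Of 22 genes that glucocorticoids induce in many tissues, 20 had a shared site by nearest TSS and 13 by promoter, with a median of 11.5 sites per gene. With q-values up to 0.01 in both lists the count by nearest TSS fell to 7, and that of the 12 myofibre markers to 4. In the same setting it was 6 of the 21 ubiquitin genes, 6 of the 28 autophagy genes and 3 of the 31 insulin and mTORC1 genes described below. It was 3 of 32 proteasome, 3 of 19 clock, 1 of 32 respiratory chain and 3 of 50 ribosomal protein genes. Of all 26180 genes, 713 had a shared site in this setting. Among the 22 genes, the exceptions in the full lists were Errfi1, an inhibitor of growth factor receptors, with GR only and a fold of 3.89 at 16.9 kb, and Sgk1, a kinase of ion transport and cell survival, with both proteins at separate sites. Ddit4 had 5 shared, 9 GR-only and 2 LSD1-only sites. At its promoter the LSD1 fold was 5.10 and the GR fold 3.31, whereas at the GRE site 22.4 kb upstream the LSD1 fold was 3.49 and the GR fold 6.68. Folds of the 2 proteins come from separate libraries, so they cannot be ranked against each other at a site. The strongest GR site of Ddit4, with a fold of 7.96 at 30.6 kb, held no LSD1 peak after starvation but held one in fed muscle. Pik3r1 had no site midpoint in its promoter. A shared site of 1719 bp spanned its TSS, with the midpoint 268 bp downstream and folds of 2.81 (GR) and 3.33 (LSD1). In all, Pik3r1 had 3 shared sites and 24 sites with LSD1 only.

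Of 21 ubiquitin ligase and ubiquitin genes of muscle atrophy, 13 had a shared site by nearest TSS and 9 by promoter. Trim63 had 6 shared sites between 7.50 kb upstream and 12.5 kb downstream of its TSS. The strongest for GR lay 4.60 kb upstream, with folds of 11.0 (GR) and 3.36 (LSD1) and an offset of 34 bp, and the promoter site had folds of 8.70 and 4.24. Its 3 shared sites inside the gene had GR folds of 2.58 to 3.19. Fbxo32, the ligase atrogin-1, had 5 shared sites, with folds of 5.02 and 3.70 at the promoter, and Fbxo31, another F-box protein, had 4, of which the strongest lay in an intron with folds of 11.7 and 3.43. Traf6 had GR only, with a fold of 2.64. Trim32 had LSD1 only, with a fold of 4.53 at 165 kb.

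**Figure D5:**
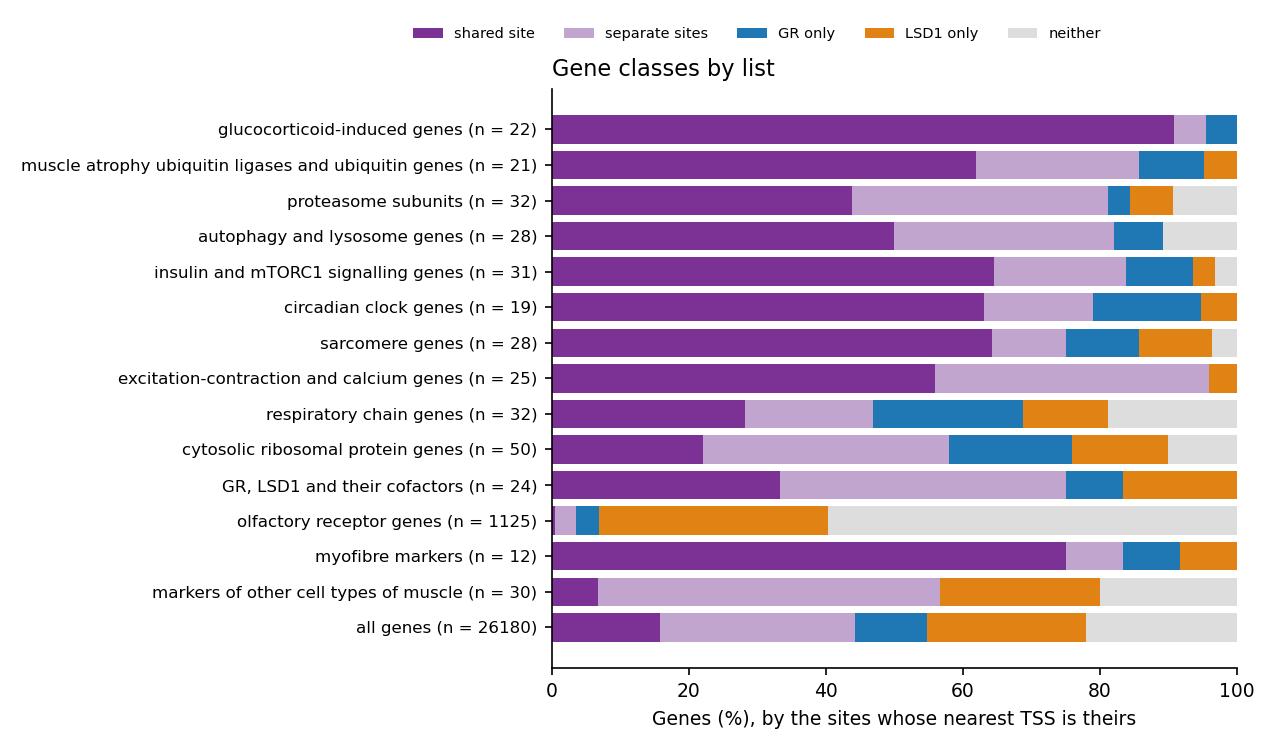
Percent of genes (x axis) in each list (y axis, with the number of annotated genes) that had a shared site, both proteins at separate sites, GR only, LSD1 only or neither, by sites whose nearest TSS is theirs. A shared site was found for 20 of 22 glucocorticoid-induced genes, 9 of 12 myofibre markers and 5 of 1125 olfactory receptor genes, against 15.7% of all genes.

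Of 32 proteasome subunits, 14 had a shared site by nearest TSS and 10 by promoter, and Psma6 was the strongest for GR, with folds of 5.14 and 3.72 and an offset of -6 bp, 76 bp upstream of its TSS. Psmb2 had GR only and a fed LSD1 peak in the same window, and Psmc5 and Psmd13 had LSD1 only, with folds of 3.74 and 3.29. Of 28 autophagy and lysosome genes, 14 had a shared site by nearest TSS and 5 by promoter. They were led by Tfeb, the regulator of lysosome genes, with folds of 8.80 and 3.68 in an intron, and Map1lc3b, with folds of 4.40 and 3.15 and an offset of 1 bp. Nbr1 and Atg16l1 had GR only in the promoter, and both promoters held an LSD1 peak in fed muscle. Bnip3 had a shared promoter site with folds of 2.95 and 3.63, and its strongest GR site, with a fold of 9.28 at 10.3 kb, was not shared. Ctsl had a shared site 121 bp downstream of its TSS, with folds of 2.52 and 4.02. Gabarapl1 had no site.

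Of 31 insulin and mTORC1 signalling genes, 20 had a shared site by nearest TSS and 12 by promoter. Sesn1, a brake on mTORC1, had folds of 6.97 and 3.37 in an intron. Rps6kb1, the S6 kinase, had GR only in its promoter with a fold of 3.09, Rheb had GR only at 18.6 kb, and Pik3cb had LSD1 only with a fold of 4.20. Circadian clock genes were the list with the highest share of GR-only promoters, 12 of 19 (63.2%, against 13.2% of all genes), with 4 shared promoters. Ciart, a repressor of the clock, had GR only in the promoter with a fold of 3.06, Per3 had GR only in an intron, and Clock had LSD1 only at 42.6 kb with a fold of 4.40, in a wholly repeat-masked peak. Shared sites led by GR fold were those of Rora (4.55 and 3.42) and Bhlhe41 (4.26 and 3.77), both away from the promoter.

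Genes of contraction also often had a shared site. By nearest TSS the counts were 18 of 28 sarcomere genes and 14 of 25 genes of excitation-contraction coupling and calcium. Of all genes, 15.7% had one. The median number of sites per gene was 4 and 6 in these lists, against 2 over all genes, and a comparison at like site number was not made. By promoter there were 10 in each list, against 8.86% of all genes. With q-values up to 0.01 in both lists, 4 of the 28 and 3 of the 25 had a shared site by nearest TSS, against 713 of all 26180 genes. Mybpc1 had folds of 10.6 and 3.37 in an intron, Mylk2 had 5.84 and 3.22, and the calcium channel subunit Cacng1 had 5.91 and 4.07. Mybpc2 and Myoz1 had GR only, with folds of 3.76 and 3.37. Myh2 and Tnnt1, a fast oxidative and a slow fibre gene, had LSD1 only, as peaks of the shortest length with folds of 4.34 and 4.03. Atp2a2, the calcium pump of slow fibres and heart, had LSD1 only at 54.6 kb. The Myh2 and Atp2a2 peaks were wholly repeat-masked. Of the calmodulin genes Calm2 and Calm3, Calm3 had a shared promoter, with an LSD1 fold of 3.15 and a GR fold of 2.64. Calm2 had GR at -384 bp and LSD1 at 105 bp from its TSS, with folds of 3.26 and 4.03, as separate sites.

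Among housekeeping genes, a shared site was found for 9 of 32 respiratory chain genes by nearest TSS and 8 by promoter, led by Ndufv1 (folds of 4.14 and 3.498) and Sdhb (3.57 and 3.43) in their promoters, and 10 had GR only in the promoter. Uqcr11 and Ndufs1 had GR only, with folds of 2.78 each, and Cox7a2 and Uqcrb had LSD1 only, with folds of 3.81 and 3.599. Of 50 cytosolic ribosomal protein genes, 11 had a shared site by nearest TSS and 12 by promoter. The leading shared promoters were those of Rps18, with folds of 2.95 for GR and 4.31 for LSD1 at an offset of 13 bp, and Rps19, with 2.91 and 3.91. Rpl27 had GR only with a fold of 4.42, and Rpl10 and Rpl6 had LSD1 only with 4.27 and 4.08.

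Among the 24 genes of GR, LSD1 and their cofactors, 8 had a shared site by nearest TSS and 4 by promoter. Nr3c1, which encodes GR, had the nearest TSS to a shared site 243 kb downstream of it, with folds of 6.67 and 3.12. This site lay in an intron of some annotated transcript, which need not be of Nr3c1, and its LSD1 q-value was 0.0781. Kdm1a, which encodes LSD1, had LSD1 only, with a fold of 5.51 in an exon 9.71 kb from its TSS. That peak measured 59 bp, had 59.3% repeat-masked bases and held no LSD1 peak in fed muscle. Hsp90aa1 and Kdm3a had GR only, with folds of 2.86 and 2.31, and Rcor3 had LSD1 only in its promoter with a fold of 3.71. Among the other named genes, Mtch1 and Rap2b had shared promoters with GR folds of 3.36 and 2.79 and LSD1 folds of 3.68 and 3.41. Tfcp2 had GR 22 bp and LSD1 181 bp from its TSS as separate sites. Pax7, the satellite cell factor, had no promoter site and separate sites with GR folds of 2.68 and 2.70. Mstn, the muscle growth inhibitor, had a GR-only site with a fold of 7.90 at 23.9 kb and 4 sites with LSD1 only.

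The named sites of highest fold in each class were these. The shared promoters where both folds were high were those of Pnpla7, a lysophospholipase (5.05 for GR, 4.59 for LSD1), Txnip, an inhibitor of glucose uptake (4.72 and 4.34), and Trim63. Outside promoters they were sites near 4930481A15Rik (5.61 and 6.02), Usp25 (7.16 and 4.92, in an exon) and Trp63 (4.96 and 4.84). The GR-only promoters were those of Doc2b (8.37), Gm20735 (7.34) and Syn2 (6.41), and the last 2 held an LSD1 peak in fed muscle. The GR-only distal sites lay near 4933431G14Rik (14.1), Gm27252 (12.9) and Kcnma1 (12.8). All 3 had GR and LSD1 called there in fed muscle and LSD1 not called after starvation. The LSD1-only promoters were those of En1 (5.79), Eapp (5.69) and Ptprk (5.59), and the distal sites lay near 5031425F14Rik (7.22), Trpm6 (6.77) and Mcu (6.30).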

How the data were processed

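ChIP-seq libraries were made by the authors from nuclei of mouse skeletal muscle. Per their methods, single-end reads were mapped to mm10 (GRCm38), reads with 1 location were kept, and broad peaks were called with MACS2 against input with a false discovery rate filter. The submitters' processing notes name bcl2fastq 2.20.0.422. The deposited lists hold, per peak, a fold enrichment over input (a ratio), −log10 of a p-value, −log10 of a q-value and a score (the last not used). The largest q-value deposited by the authors was 0.0970 for GR starved and 0.0979 for LSD1 starved, so the lists were less strict than 0.01. The LSD1 starved list is many times longer than the one in the text of the study, for a reason not given in the sources used here.

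Overlapping peaks (at least 1 bp) were joined into sites. Midpoints were placed with 45756 curated RefSeq transcripts of 26180 genes, on chromosomes 1 to 19, X and Y, which left out 59 shared, 96 GR-only and 200 LSD1-only sites. Motifs and other lists were read in the 300 central bases of a site and in 2 flanks 5 kb away. Scripts (Python 3.11.15, pandas 2.3.3, pysam 0.24.0) were tested on simulated data. Named genes were those the study used as examples and, for each gene list, the 2 genes of highest fold in each class. Named sites were the 3 of highest fold per class in promoters and the 3 outside. These sites lay on X or autosomes other than 18, had under 50% repeat-masked bases, and were ranked by the lower fold when shared. A few genes that these rules name are not reported here. The members, lists and motifs were chosen with earlier results of these data known. Alternatives changed the q-value threshold, list length, overlap, merging, chromosomes, repeats, promoter window, gene assignment and motif rule. With 1 library per protein no test was made and no p-value is given. Read depth was not analysed here.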

Additional observations from a re-analysis of the deposited data

How the results depend on the processing

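Of 84 values recomputed for the main comparisons, 28 moved by less than their interval (or under 1.5 times for a count) and 56 by more. The promoter order of the classes was kept in 8 of 9 settings and the distance order in 7 of 8, with q-values up to 1e-05 as the exception in both. Values are given for GR peaks with LSD1, LSD1 peaks with GR, promoter share and median TSS distance of shared, GR-only and LSD1-only sites, offset and genes with a shared site, as far as they moved. With q-values up to 0.01 they were 6.43% and 13.5%, promoter shares of 35.2%, 19.4% and 6.78%, distances of 2422, 11252.5 and 35415.5 bp, and 713 genes. With q-values up to 1e-05 they were 0.909% of GR peaks, promoter shares of 0%, 10.7% and 8.13%, distances of 28333.5, 16964 and 28982 bp, an offset of 11 bp and 24 genes. With the LSD1 list cut to the length of the GR list they were 8.59% and 8.87%, 40.2%, 12.6% and 2.80%, 664.5 bp (shared) and 13815 bp (GR only), 125 bp and 2692 genes. Where 50% of the shorter peak had to be covered, they were 12.8% and 7.92%, 11.7% (GR only) and 3.47% (LSD1 only), 40466 bp (LSD1 only) and an offset of 114 bp. With peaks within 1 kb merged they were 15.6% and 8.76%, 35.7%, 10.8% and 2.73%, 15295 bp (GR only) and 42552 bp (LSD1 only), and an offset of 160 bp. Peaks with under 50% repeat-masked bases gave 10.6% of LSD1 peaks, 40.7%, 12.4% and 3.88%, and 666, 12991 and 36531 bp. A promoter reaching to 1000 bp downstream gave 47.5%, 15.9% and 4.93%. Without peaks that overlap an H3K9me1 or H3K9me2 starved peak, chosen after seeing the data, the values were 13.6% and 8.08%, 39.2% and 1008 bp for shared sites, and 125 bp. The stricter and shorter lists hold fewer peaks, and for the other shifts the cause was not tested. Of 126 counts for the gene lists, 36 moved. With up to 2 mismatches GRE-like matches were found in 2.34% of shared, 3.64% of GR-only and 2.38% of LSD1-only sites. No paired analysis was possible because each protein had 1 library and the values come from no test, and no library could be left out.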

Other observations

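Of 403 annotated tRNA genes, 23 were overlapped by a shared site, 40 by a GR-only site and 12 by an LSD1-only site, and the classes differ in size. Of 997 snRNA genes, the counts were 16, 2 and 23, and of 1330 snoRNA genes they were 11, 22 and 13. A telomere-type repeat of at least 3 units in a row was found in the central 300 bases of 14 shared (0.254%), 33 GR-only (0.103%) and 39 LSD1-only sites (0.0649%). The 15 genes with the most shared sites, led by Sfi1, Gm21119 and Erdr1 with 22, 19 and 18, held 181 of the 5507 shared sites (3.29%), and 87 of these 181 sites (48.1%) had at least 50% repeat-masked bases. These features were chosen after their values were seen, and no test was made.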
